A study of Vitis vinifera and Vitis quinquangularis with 24 samples.

Results

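At the onset of berry softening, many gene models changed differently in the skin of the wild and the cultivated grape compared here. The contrast described is the difference of the softening steps: the log2 change from E-L 33 to E-L 34 in Danfeng-2 minus the same change in Cabernet Sauvignon, so that a positive value means that a gene model rose more, or fell less, in Danfeng-2. Its members are 12 of the 24 RNA-seq libraries of the series, 3 from each of 4 groups. The groups are Danfeng-2 skin at E-L 34, Danfeng-2 skin at E-L 33, Cabernet Sauvignon skin at E-L 34 and Cabernet Sauvignon skin at E-L 33. Danfeng-2 is an accession of Vitis quinquangularis, a wild grape of China, and Cabernet Sauvignon is a wine cultivar of Vitis vinifera. The E-L numbers are stages of the Eichhorn-Lorenz scale, on which berries are hard and green at E-L 33, begin to soften at E-L 34, begin to colour at E-L 35 and are ripe at E-L 38. The labels give cultivar, stage, tissue and replicate number, and do not say whether replicates came from separate vines or from pools. Of 27711 gene models listed in the tables, 18375 had counts high enough to be tested, and 3222 of them (17.5%) passed the test of a difference between the steps.

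Softening is the first visible sign of ripening in the grape berry. Cell walls are loosened by expansins and by enzymes that cut or rejoin pectin and xyloglucan, sugars begin to collect, and in coloured grapes anthocyanins follow in the skin. Grape skin also makes stilbenes such as resveratrol, which the title of the series names as its interest, from the same precursors as the flavonoids, by the enzyme stilbene synthase. The tables give no gene names, and none of the identifiers had an entry (0 of 27711) in the available list of grape gene names, so models are given by identifier and position. No family or role is assigned to a model here, skin markers could not be checked, and no sequence is shown. Coordinates are those of the deposited tables, the build being unstated in the sources used. The same models at the same coordinates are listed for both species. Loss of a constant share of a model's reads in 1 species would cancel in this contrast, unlike in a comparison of the species at 1 stage.

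Total counts of the 12 libraries ran from 14238399 to 23095568. Libraries of 1 group correlated across models at 0.996 to 0.998 in 8 pairs, on log2(CPM + 1). The remaining 4 pairs reached 0.941 to 0.973, and all of them included Danfeng-2 E-L 33 replicate 1 or Cabernet Sauvignon E-L 34 replicate 3. The Danfeng-2 library of these lay at least 2-fold from the mean of its partners for 14.2% of tested models, and the Cabernet Sauvignon library for 6.02%. Of the models in which Cabernet Sauvignon E-L 34 replicate 3 lay 2-fold apart, it was displaced towards the E-L 33 level of its species in 975 and away from it in 131. In the case of Danfeng-2 E-L 33 replicate 1, 1681 models were displaced towards the E-L 34 level and 934 away from it. Results are given with all 12 libraries, and the main ones also without these 2.

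Among the 3222 called models, 1541 were higher in the Danfeng-2 step (8.39% of those tested) and 1681 were lower (9.15%). Calls required a difference of at least 2-fold and, in edgeR's quasi-likelihood test, a Benjamini-Hochberg adjusted p below 0.05. The median log2 difference was 1.86 in the models called higher and -1.85 in those called lower, beside -0.105 over all tested models. Without the 2 libraries, 4292 of 18608 tested models were called (23.1%), 2388 higher (12.8%) and 1904 lower (10.2%), so the direction that held more models turned. Of the 1541 models called higher with all libraries, 1438 were also called higher without the 2 (93.3%), and 1476 of the 1681 called lower remained lower (87.8%). The call turned its direction in 0 models. These are bulk samples, so fewer cells of a kind and less RNA per cell cannot be told apart.

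**Figure D1:**
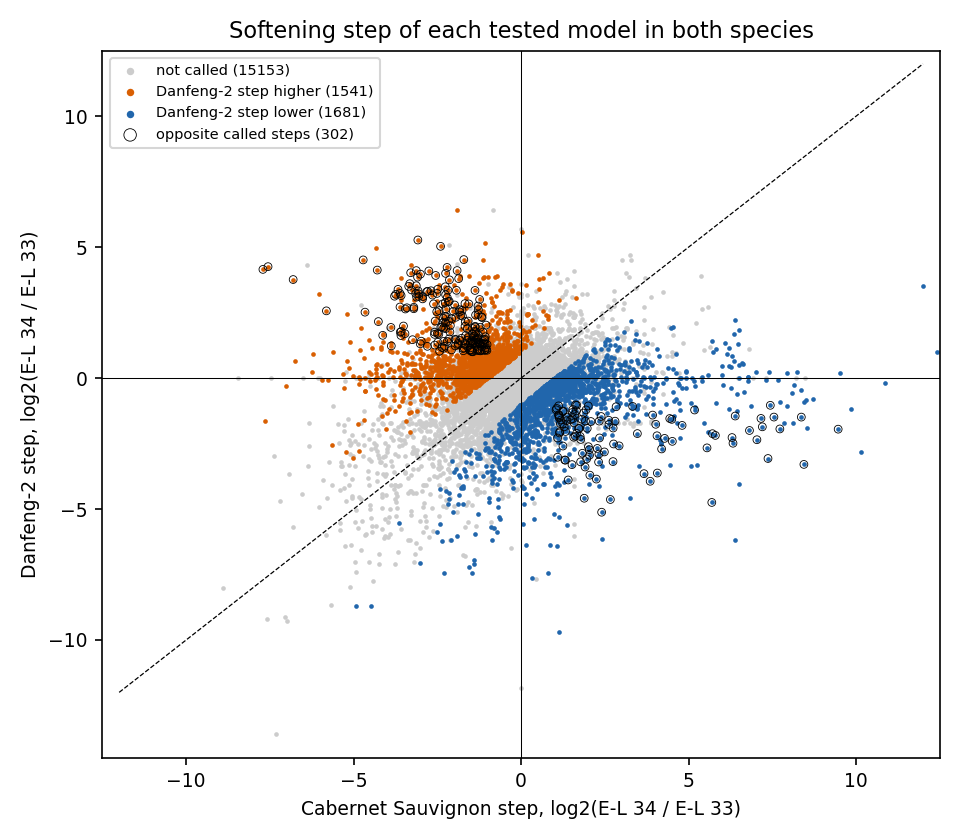
Each point is 1 of 18375 tested models, with its log2 change from E-L 33 to E-L 34 in Danfeng-2 (vertical axis) and in Cabernet Sauvignon (horizontal axis). The 1541 models called higher in the Danfeng-2 step lie above the dashed line of equal steps and the 1681 called lower lie below it, and the 302 ringed models were called in opposite directions in the 2 species.

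In each direction the largest class moved in Cabernet Sauvignon without a called change in Danfeng-2. Over all tested models, 3.39% rose and 6.92% fell in the Danfeng-2 step (4.46% and 6.38% without the 2 libraries). In the Cabernet Sauvignon step 7.42% rose and 11.6% fell (8.34% and 15.3%). Of the 1541 models higher in the Danfeng-2 step, 780 (50.6%) fell in Cabernet Sauvignon while the Danfeng-2 step was not called, with a median log2 step of 0.19 in Danfeng-2 and -1.72 in Cabernet Sauvignon. Of the 1681 lower models, 731 (43.5%) rose in Cabernet Sauvignon while the Danfeng-2 step was not called, with medians of -0.152 and 1.74. Changes called in Danfeng-2 alone were fewer: 186 rose and 388 fell while the Cabernet Sauvignon step was not called. In 194 models Danfeng-2 rose and Cabernet Sauvignon fell, and in 108 Danfeng-2 fell and Cabernet Sauvignon rose. Together these were 302 models with opposite called steps (1.64% of those tested), and 465 without the 2 libraries. Without them the models not called in Danfeng-2 that fell in Cabernet Sauvignon were 1291, those that rose in Danfeng-2 and fell in Cabernet Sauvignon 319, and the higher models that fell in both 68. Both species rose in 2 of the higher and 29 of the lower models, and both fell in 18 of the higher and 52 of the lower ones. Neither step alone was called in 361 of the higher and 373 of the lower models. The steps are parts of the tested difference, so this sorting is a description.

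A large concerted difference lay on chromosome 16. Grapevine chromosome 16 is known to carry a long tandem array of stilbene synthase genes, and chromosome 10 a smaller group of them, but the tables do not say which models these are. In a window from 16197749 to 16725593 on chromosome 16, 27 of 32 tested models (of 37 listed) were higher in the Danfeng-2 step and 0 lower, where 8.39% of all tested models were higher. In Danfeng-2 the summed level of the tested models was 593.5, 607.9 and 610.1 CPM at E-L 34, against 90.8, 109.2 and 108.2 CPM at E-L 33. In Cabernet Sauvignon it was 71.1, 70.0 and 95.3 CPM at E-L 34, against 147.0, 149.9 and 147.2 CPM at E-L 33. The sum thus stood 5.88-fold higher at E-L 34 in Danfeng-2 and at 0.532 of its E-L 33 level in Cabernet Sauvignon, and the stages did not overlap in either species. The Cabernet Sauvignon sum mixes opposite movements, as its parts show, which were split by the call and are a description. The 27 called models summed to 529.5, 543.0 and 540.3 CPM in Danfeng-2 skin at E-L 34, against 39.2, 44.7 and 46.6 CPM at E-L 33. In Cabernet Sauvignon those 27 summed to 6.35, 6.25 and 45.5 CPM at E-L 34, against 115.8, 117.7 and 119.7 CPM at E-L 33, a ratio of 0.165 with all libraries and of 0.0535 without replicate 3. The 5 models not called summed to 66.3 ± 3.24 CPM in Danfeng-2 skin at E-L 34, against 59.2 ± 6.79 CPM at E-L 33, and to 59.4 ± 8.34 CPM in Cabernet Sauvignon at E-L 34, against 30.3 ± 2.43 CPM at E-L 33 (SD, n = 3 each). By single models, 26 rose and 0 fell in Danfeng-2, while 24 fell and 1 rose in Cabernet Sauvignon. The median log2 difference was 5.98 in the window, and 8.4 without the 2 libraries, with 27 higher and 1 lower.

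Within this window VIT_16s0100g00900 (chromosome 16, from 16323474 to 16505168, overlapping 14 models) had 97.0, 94.8 and 85.0 CPM in Danfeng-2 skin at E-L 34, against 5.55, 6.30 and 5.78 CPM at E-L 33. In Cabernet Sauvignon the same model had 0.831, 0.892 and 4.52 CPM at E-L 34, against 18.2, 17.3 and 14.8 CPM at E-L 33. Its log2 difference was 6.97 ± 0.62 (SE; adjusted p = 1.5e-07), with replicate 3 of Cabernet Sauvignon E-L 34 the highest of its group. VIT_16s0100g00750 (from 16238965 to 16240683), which overlaps no other model, had 24.2, 22.5 and 25.7 CPM in Danfeng-2 skin at E-L 34, against 1.33, 1.36 and 1.72 CPM at E-L 33. Cabernet Sauvignon libraries had 0.175, 0 and 1.12 CPM at E-L 34, against 4.58, 4.27 and 4.18 CPM at E-L 33. Its log2 difference was 7.32 ± 0.67 (SE; adjusted p = 1.8e-07), and 9.43 without the 2 libraries. In both models the stages did not overlap in either species, Danfeng-2 being higher and Cabernet Sauvignon lower at E-L 34. VIT_16s0100g01120 averaged 24 CPM in Danfeng-2 skin at E-L 34, against 2.53 CPM at E-L 33. In Cabernet Sauvignon its mean was 0.314 CPM at E-L 34, against 3.95 CPM at E-L 33. The 5 models of the window that were not called were VIT_16s0100g00720, VIT_16s0100g00730, VIT_16s0100g00740, VIT_16s0100g01210 and Grape_newGene_765, the first 3 at its start and the other two at its end. Of the 32 tested models 23 overlap another, so reads may be split among them and the count is not one of independent genes.

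On chromosome 10 lie the models VIT_10s0042g00840 to VIT_10s0042g00900, from 14216026 to 14306520. Of these, 4 of 5 tested models were higher in the Danfeng-2 step and 0 lower, with all 12 libraries and without the 2. Over all tested models 8.39% were higher and 9.15% lower. VIT_10s0042g00900 was not called and differed from the others, at a mean of 0.337 CPM in Danfeng-2 skin at E-L 34, against 0.751 CPM at E-L 33. The summed level of the 5 models in Danfeng-2 was 65.5, 65.7 and 67.6 CPM at E-L 34, against 7.72, 6.5 and 7.22 CPM at E-L 33. In Cabernet Sauvignon it was 1.14, 1.64 and 1.43 CPM at E-L 34, against 10.52, 9.5 and 8.16 CPM at E-L 33. No library of either stage overlapped the other stage of its species. VIT_10s0042g00870 was the most abundant, at 37.9, 37.2 and 36.6 CPM in Danfeng-2 skin at E-L 34, against 3.92, 2.52 and 3.54 CPM at E-L 33. Cabernet Sauvignon skin had 0.394, 0.798 and 0.806 CPM at E-L 34, against 4.17, 3.04 and 2.46 CPM at E-L 33, a log2 difference of 5.75 ± 0.71 (SE; adjusted p = 5.8e-06). All 5 tested models overlap another, which again leaves the split of reads uncertain. At E-L 35 the Danfeng-2 sum was 13.4 CPM in replicate 1 and 87.9 and 89.3 CPM in replicates 2 and 3, and the Cabernet Sauvignon sum was 88.4 ± 2.75 CPM (SD, n = 3). On chromosome 16 the sums at E-L 35 were 644, 1950 and 1946 CPM in Danfeng-2 and 2681, 2641 and 2714 CPM in Cabernet Sauvignon. By E-L 35 both windows were thus far above their E-L 33 level in all 3 Cabernet Sauvignon libraries.

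**Figure D2:**
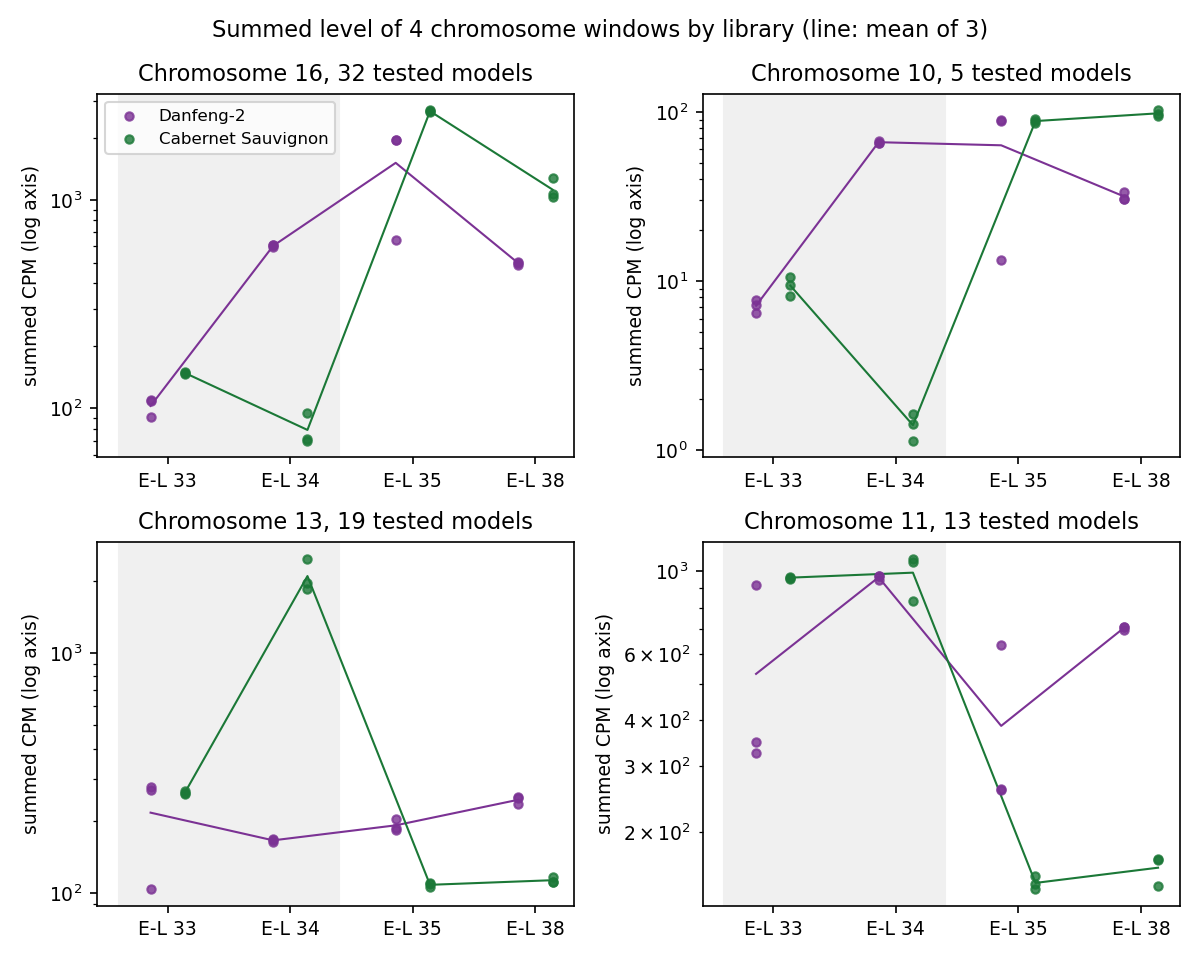
Summed CPM (log axis) of the tested models in windows of chromosomes 16, 10, 13 and 11 at 4 stages, 1 point per library, with lines through the means of 3, for Danfeng-2 and Cabernet Sauvignon; shading marks the softening step. On chromosome 16 Danfeng-2 rose 5.88-fold at the step while the Cabernet Sauvignon sum, most of it at E-L 34 from 5 models that were not called, stood at 0.532 of its E-L 33 level, and on chromosome 13 Cabernet Sauvignon at E-L 34 stood above all other groups.

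A window of chromosome 13 went the other way. Chromosome 13 of grapevine is known to hold a group of small heat shock protein genes, which are induced by heat and other stress, and chromosome 11 a group of xyloglucan endotransglucosylase genes, whose products rejoin wall polymers, but none is named in the tables. From 3991648 to 4228520 on chromosome 13, 11 of 19 tested models were lower in the Danfeng-2 step and 2 higher, where 9.15% of all tested models were lower. The summed level in Danfeng-2 was 163.2, 168.0 and 165.8 CPM at E-L 34, against 103.7, 276.0 and 268.7 CPM at E-L 33, with replicate 1 low at E-L 33 and the stages overlapping because of it. In Cabernet Sauvignon it was 1848, 1964 and 2483 CPM at E-L 34, against 265.7, 260.4 and 259.8 CPM at E-L 33, a ratio of 8.01 with no overlap. At E-L 35 the Cabernet Sauvignon libraries stood at 108.5, 109.5 and 106.2 CPM. In the window 3 models rose and 5 fell in Danfeng-2 (1 rose and 9 fell without the 2 libraries), while 10 rose and 0 fell in Cabernet Sauvignon (12 and 0). Without the 2 libraries 10 of 20 tested models were lower and 3 higher, and the median log2 difference was -3.5, beside -5.52 with all libraries.

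VIT_13s0019g02780 (from 4015394 to 4016080) had 6.5, 7.03 and 5.65 CPM in Danfeng-2 skin at E-L 34, against 12.2, 21.6 and 22 CPM at E-L 33. Cabernet Sauvignon libraries had 439, 493 and 419 CPM at E-L 34, against 3, 3.09 and 3.32 CPM at E-L 33. Its log2 difference was -8.70 ± 0.51 (SE; adjusted p = 9.5e-10), and the stages did not overlap in either species. VIT_13s0019g03000 (from 4149244 to 4149995) had 23.1, 25.6 and 28.1 CPM in Danfeng-2 skin at E-L 34, against 3.20, 80.0 and 80.0 CPM at E-L 33, where replicate 1 stood apart. It reached 497, 511 and 758 CPM in Cabernet Sauvignon at E-L 34, against 15.9, 17 and 15.5 CPM at E-L 33. The 2 models called higher were VIT_13s0019g03040 and VIT_13s0019g03100, with log2 differences of 2.13 and 1.73. VIT_13s0019g03040 averaged 33.1 CPM in Danfeng-2 skin at E-L 34, against 11.2 CPM at E-L 33, and 88.7 CPM in Cabernet Sauvignon at E-L 34, against 132 CPM at E-L 33.

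On chromosome 11, from 18903622 to 19019512, 9 of 13 tested models were higher in the Danfeng-2 step and 1 lower (10 and 1 without the 2 libraries), where 8.39% and 9.15% of all tested models were. In Danfeng-2 10 of the 13 rose and 0 fell, where 3.39% and 6.92% of all tested models did. In Cabernet Sauvignon 1 rose and 6 fell, where 7.42% and 11.6% did. All 13 summed in Danfeng-2 to 950.0, 969.9 and 973.8 CPM at E-L 34, against 917.3, 349.2 and 326.7 at E-L 33. In Cabernet Sauvignon all 13 summed to 1063, 1083 and 832.4 CPM at E-L 34, against 968.4, 962.1 and 956.7 at E-L 33, with overlap. The 10 called models, 9 higher and 1 lower, were split off by the call, so their sums are a description. In Danfeng-2 these 10 summed to 416.9, 402.4 and 398.6 CPM at E-L 34, against 202.0, 48.3 and 46.3 at E-L 33. Replicate 1 of Danfeng-2 E-L 33 thus stood far above its partners, though not in VIT_11s0052g01280 or VIT_11s0052g01320. In Cabernet Sauvignon the 10 summed to 246.7, 246.6 and 331.7 CPM at E-L 34, against 501.8, 494.0 and 480.7 at E-L 33. VIT_11s0052g01280 (from 18996072 to 18997269) had 18.3, 18.4 and 16.5 CPM in Danfeng-2 skin at E-L 34, against 2.11, 2.82 and 2.44 CPM at E-L 33. The Cabernet Sauvignon skins had 5.64, 4.74 and 5.69 CPM at E-L 34, against 17.6, 17.1 and 16.7 CPM at E-L 33, a log2 difference of 4.52 ± 0.23 (SE; adjusted p = 1.2e-10). Its neighbour VIT_11s0052g01250 (from 18981287 to 18982639) was the most abundant of the window and was not called, with a log2 difference of -0.15 (adjusted p = 0.86). That model had 515, 549 and 557 CPM in Danfeng-2 skin at E-L 34, against 612, 281 and 265 CPM at E-L 33, and 815, 835 and 498 CPM in Cabernet Sauvignon at E-L 34, against 456, 458 and 466 CPM at E-L 33. VIT_11s0052g01140, at the start of the window, was the 1 model called lower (log2 difference -6.00). It had 16.4, 15.5 and 16.6 CPM in Danfeng-2 skin at E-L 34, against 16, 8.72 and 7.60 CPM at E-L 33, and rose in Cabernet Sauvignon to 10.9, 13.4 and 8.15 CPM at E-L 34, against 0, 0.169 and 0.133 CPM at E-L 33.

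Other windows held few or mixed calls for this step. On chromosome 5, from 1938554 to 2167281, 0 of 9 tested models were called by edgeR (2 lower at an unadjusted p below 0.05, and 1 lower with DESeq2), and 1 was lower without the 2 libraries. Most of the 9 were at or near 0 in Danfeng-2 at both stages, so a difference of steps could hardly be called there. VIT_05s0020g00080 averaged 35.9 CPM in Cabernet Sauvignon at E-L 34, against 2.2 CPM at E-L 33. In Danfeng-2 it averaged 0.0404 and 0.0336 CPM at these stages. Danfeng-2 stood below Cabernet Sauvignon in 9 of 9 at E-L 34 and at E-L 33, where 14.6% of all tested models were called so at each stage. On chromosome 12, from 19036148 to 19515658, 2 of 13 tested models were higher, VIT_12s0034g02560 with a log2 difference of 1.98 and VIT_12s0035g00070 with 2.62 (4.33 without the 2 libraries), a count too small to read against the 8.39% of all tested models. On chromosome 18, from 4982073 to 5171397, 3 of 12 were higher and 3 lower (5 and 3 without the 2 libraries), where 8.39% and 9.15% of all tested models were. There VIT_18s0001g06690 had 8.17, 7.70 and 7.75 CPM in Danfeng-2 skin at E-L 34, against 77.8, 39.0 and 42.4 CPM at E-L 33. Cabernet Sauvignon skin had 88.6, 91.1 and 46.5 CPM at E-L 34, against 55.7, 53.1 and 49.5 CPM at E-L 33, a log2 difference of -3.26 (adjusted p = 0.0022). On chromosome 6, the models VIT_06s0009g02800 to VIT_06s0009g03150 had 11 tested members and 0 calls by edgeR (1 lower at an unadjusted p below 0.05, and 1 higher with DESeq2). Their sum in Danfeng-2 was 2.05 ± 0.569 CPM at E-L 34, against 2.47 ± 0.152 CPM at E-L 33 (SD, n = 3 each). In Cabernet Sauvignon it was 80.4 ± 13.1 CPM at E-L 34, against 173.5 ± 8.21 CPM at E-L 33. Without the 2 libraries 1 model was higher and 1 lower, VIT_06s0009g02810 with a log2 difference of 4.42 and VIT_06s0009g03000 with -6.51, and the alternatives gave 0 to 4 higher and 0 to 2 lower. At these levels in Danfeng-2 the calls depend on the setting. On chromosome 2, the models VIT_02s0033g00370 to VIT_02s0033g00460 summed to at most 0.337 CPM in each of the 12 libraries, with 2 of 8 tested and 0 called by edgeR (1 higher at an unadjusted p below 0.05, 1 higher with DESeq2 and 1 higher without the 2 libraries).

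Beyond the windows, models with opposite steps also changed places between the species. VIT_16s0039g01130 (chromosome 16, from 619739 to 652698, overlapping 2 models) had 13.5, 11.7 and 12.6 CPM in Danfeng-2 skin at E-L 34, against 0.965, 1.16 and 1.43 CPM at E-L 33. Cabernet Sauvignon libraries had 1.58, 1.08 and 6.18 CPM at E-L 34, against 38.4, 35.4 and 39.6 CPM at E-L 33. The levels of the species crossed, with a log2 difference of 7.06 ± 0.77 (SE; adjusted p = 1.3e-06). VIT_12s0028g03550 (chromosome 12, from 4345172 to 4346354) followed the same course. It had 38.9, 39.0 and 40.5 CPM in Danfeng-2 skin at E-L 34, against 1.63, 4.39 and 4.30 CPM at E-L 33, and 0.306, 0.141 and 3.40 CPM in Cabernet Sauvignon at E-L 34, against 13.9, 11.8 and 14.1 CPM at E-L 33. The other two of the 4 first-ranked models of this class were VIT_16s0100g00900 and VIT_16s0100g00810, both in the chromosome 16 window, where VIT_16s0100g00810 had a log2 difference of 6.47 ± 0.91 (SE; adjusted p = 2.2e-05). Without the 2 libraries the difference was 9 for VIT_12s0028g03550, 8.49 for VIT_16s0100g00810, 8.20 for VIT_16s0100g00900 and 8.08 for VIT_16s0039g01130.

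In the opposite class, the 4 first-ranked models rose steeply in Cabernet Sauvignon. VIT_11s0016g04080 (chromosome 11, from 3340651 to 3341251) had 4.31, 6.25 and 5.08 CPM in Danfeng-2 skin at E-L 34, against 4.65, 28.0 and 27.3 CPM at E-L 33, the stages overlapping through replicate 1 of E-L 33. Its Cabernet Sauvignon libraries held 431, 455 and 339 CPM at E-L 34, against 1.91, 1.80 and 2.06 CPM at E-L 33, without overlap. The log2 difference was -9.67 ± 0.79 (SE; adjusted p = 5.3e-08). VIT_04s0008g01490 (chromosome 4, from 1219942 to 1220465) had 11.7, 13.8 and 10.3 CPM in Danfeng-2 skin at E-L 34, against 16.2, 84.2 and 82.4 CPM at E-L 33, without overlap. It held 270, 276 and 504 CPM in Cabernet Sauvignon at E-L 34, against 2.25, 2.75 and 2.92 CPM at E-L 33. It overlaps 1 model on the other strand, and the use of strand in counting is not given, so its reads and those of that model cannot be told apart. VIT_13s0019g02850, in the chromosome 13 window, and VIT_01s0010g02290 (chromosome 1, from 19257410 to 19258339) had log2 differences of -9.04 and -8.82. In all 4 models Danfeng-2 E-L 33 replicate 1 was the lowest of its group. Without the 2 libraries their log2 differences were -9.21 to -10.25. These models were also at their highest mean in Cabernet Sauvignon at E-L 34: through the 4 stages in order, VIT_01s0010g02290 averaged 1.96, 222, 1.41 and 1.44 CPM there.

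**Figure D3:**
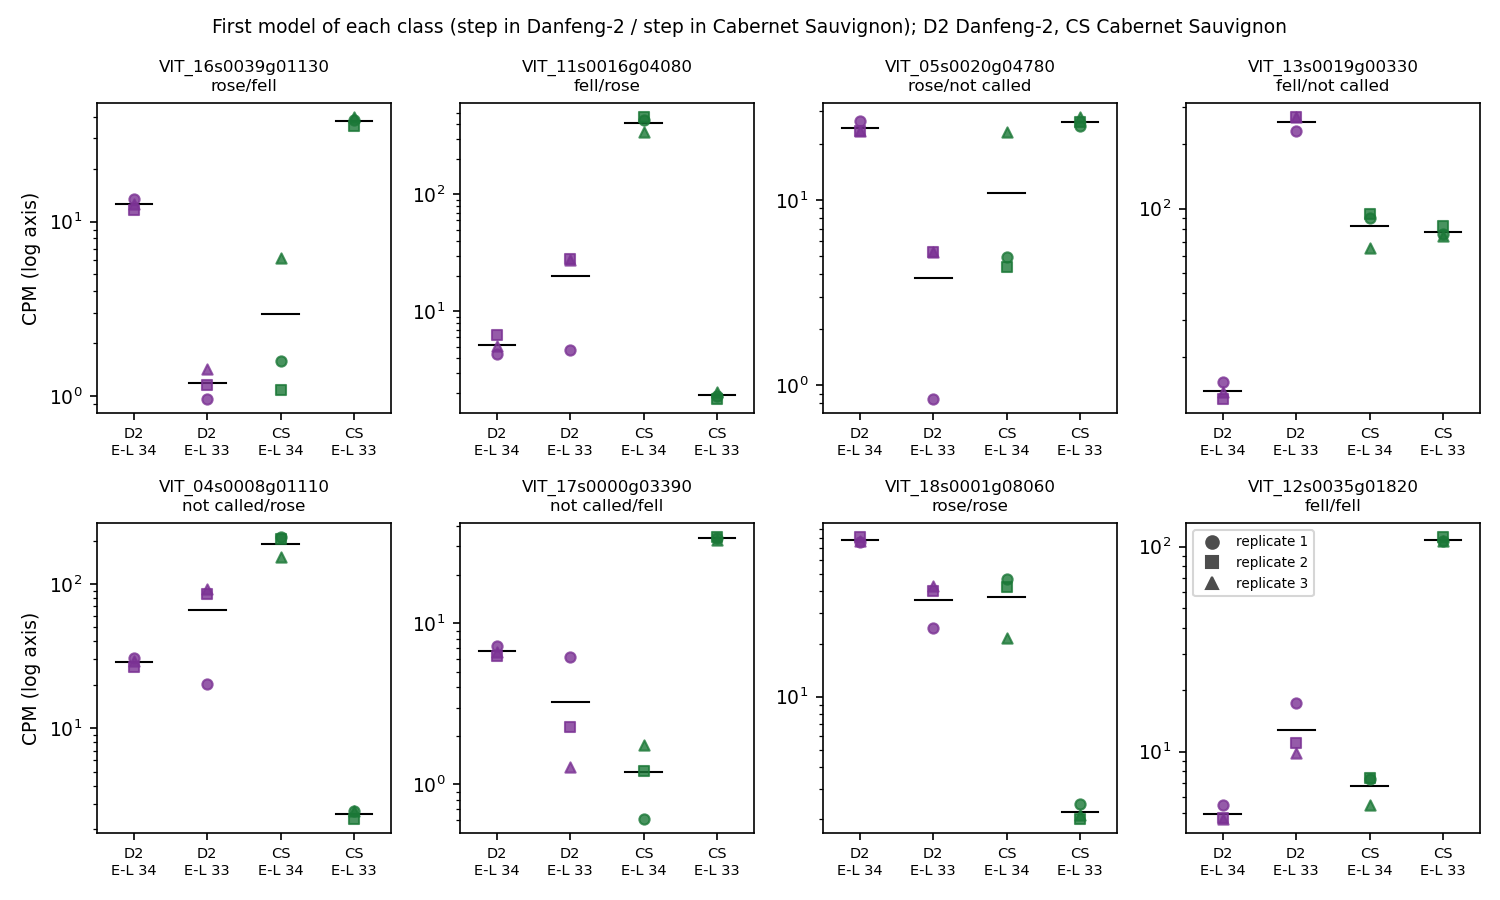
CPM (log axis) per library of the first-ranked model of 8 classes, named by the call of the step in Danfeng-2 and in Cabernet Sauvignon; the symbol shows the replicate and the bar the mean of 3. In VIT_11s0016g04080 the Cabernet Sauvignon libraries stood at 339 to 455 CPM at E-L 34 and at 1.80 to 2.06 CPM at E-L 33, and in VIT_05s0020g04780 replicate 3 of Cabernet Sauvignon E-L 34 lay far above its partners.

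Among models called in the Danfeng-2 step alone, VIT_13s0019g00330 (chromosome 13, from 2428952 to 2430676) fell to 15.3, 12.8 and 13.8 CPM at E-L 34, against 231, 268 and 268 CPM at E-L 33. The Cabernet Sauvignon skins had 90.6, 94.1 and 65.0 CPM at E-L 34, against 76.2, 82.7 and 74.7 CPM at E-L 33, with overlap. The log2 difference was -4.29 ± 0.66 (SE; adjusted p = 5.4e-05). VIT_11s0016g03250 (chromosome 11, from 2641172 to 2642135) had a log2 difference of -4.11 and VIT_10s0003g01010 (chromosome 10, from 2377763 to 2408551) one of -5.23. VIT_10s0003g01010 had 48.7 CPM in Danfeng-2 E-L 33 replicate 1 and 8.02 and 8.41 CPM in its partners, against which E-L 34 stood at 1.35, 1.15 and 1.65 CPM. Of the models whose rise in Danfeng-2 was the 1 called step, VIT_08s0007g08840 (chromosome 8, from 22209722 to 22212188) had 35.0, 34.3 and 36.6 CPM at E-L 34, against 6.70, 1.46 and 2.39 CPM at E-L 33. Cabernet Sauvignon skin had 15.1, 15.3 and 52.5 CPM at E-L 34, against 31.8, 36.5 and 31.7 CPM at E-L 33. VIT_06s0080g00090 (chromosome 6, from 19789442 to 19791139) and VIT_05s0020g04780 (chromosome 5, from 6635344 to 6637839) had log2 differences of 3.69 and 3.97. VIT_06s0080g00090 had 8.71, 6.85 and 63.7 CPM in Cabernet Sauvignon at E-L 34, against 55.7, 58.9 and 59.0 CPM at E-L 33. VIT_05s0020g04780 had 4.90, 4.36 and 23.3 CPM in Cabernet Sauvignon at E-L 34, against 25.1, 26.3 and 27.9 CPM at E-L 33, with no overlap. In all 3 of these models Cabernet Sauvignon E-L 34 replicate 3 was well above its partners, which lay below each E-L 33 library. The differences without the 2 libraries were 5.32 for VIT_08s0007g08840, 5.40 for VIT_06s0080g00090 and 4.74 for VIT_05s0020g04780, and the call of VIT_06s0080g00090 was lost with DESeq2.

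Over whole classes, the median log2 difference was 2.12 in the higher and -2.26 in the lower models called in Danfeng-2 alone, and 1.99 and -1.94 in those called in Cabernet Sauvignon alone. VIT_04s0008g01110 (chromosome 4, from 921548 to 923941) had 30.9, 26.6 and 29.5 CPM in Danfeng-2 skin at E-L 34, against 20.4, 85.7 and 92.7 CPM at E-L 33, with overlap. It rose in Cabernet Sauvignon to 211, 206 and 155 CPM at E-L 34, against 2.66, 2.36 and 2.66 CPM at E-L 33, and the log2 difference was -7.41 ± 0.86 (SE; adjusted p = 2.6e-06). VIT_01s0146g00150 (chromosome 1, from 21937512 to 21939274) rose likewise in Cabernet Sauvignon, with a log2 difference of -7.06. VIT_12s0035g01910 (chromosome 12, from 22228715 to 22229897) had 259, 264 and 1570 CPM in Cabernet Sauvignon at E-L 34, against 14.5, 15.4 and 13.7 CPM at E-L 33, so its mean rests largely on replicate 3. Its log2 difference was -7.66 with all libraries and -6.78 without the 2. The converse was seen in VIT_06s0004g06830 (chromosome 6, from 7527838 to 7531831), which had 4.12, 2.91 and 3.94 CPM in Danfeng-2 skin at E-L 34, against 1.81, 2.27 and 2.39 CPM at E-L 33. It fell in Cabernet Sauvignon to 1.44, 1.17 and 2.15 CPM at E-L 34, against 40.9, 41.1 and 42.0 CPM at E-L 33, a log2 difference of 5.45 ± 0.36 (SE; adjusted p = 3.7e-09). VIT_17s0000g03390 (chromosome 17, from 3261809 to 3265546) had a difference of 5.88. VIT_18s0001g01300 (chromosome 18, from 1877187 to 1968096, overlapping 3 models) had one of 5.25, which was 9.96 without the 2 libraries; Cabernet Sauvignon E-L 34 held 0.219, 0.282 and 15.7 CPM of it. Its call was lost with DESeq2.

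Where both species fell, 52 models fell more in Danfeng-2 (median log2 steps of -4.15 in Danfeng-2 and -1.74 in Cabernet Sauvignon) and 18 fell more in Cabernet Sauvignon. Where both rose, 2 rose more in Danfeng-2 and 29 more in Cabernet Sauvignon. Without the 2 libraries, 63 models fell more in Danfeng-2 and 68 more in Cabernet Sauvignon, so the larger number turned. Of those that rose in both, 4 then rose more in Danfeng-2 and 34 more in Cabernet Sauvignon. In the 4 named models the Cabernet Sauvignon step was the larger, which for those that fell is the less frequent case with all libraries only. VIT_18s0001g08060 (chromosome 18, from 6511788 to 6512691) had 75.7, 80.7 and 76.6 CPM in Danfeng-2 skin at E-L 34, against 24.6, 39.9 and 42.5 CPM at E-L 33, and 46.6, 42.0 and 21.7 CPM in Cabernet Sauvignon at E-L 34, against 2.46, 2.02 and 2.12 CPM at E-L 33. Both species rose, by a log2 step of 1.12 in Danfeng-2 and 4.06 in Cabernet Sauvignon. VIT_18s0001g09910 (chromosome 18, from 8278107 to 8279654) also rose in both, with a log2 difference of -1.73. VIT_12s0035g01820 (chromosome 12, from 22005528 to 22009046) fell in both, to 5.47, 4.73 and 4.70 CPM in Danfeng-2 skin at E-L 34, against 17.3, 11 and 9.8 CPM at E-L 33, and to 7.35, 7.46 and 5.47 CPM in Cabernet Sauvignon at E-L 34, against 107, 111 and 106 CPM at E-L 33. VIT_18s0001g03540 (chromosome 18, from 3380455 to 3383288) fell in both, with a log2 difference of 2.40.

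In 35 of the higher and 73 of the lower models at least 1 of the 4 groups had 0 counts in its 3 libraries (2.27% and 4.34%), as in 4.2% of all tested models. That 4.2% includes 162 models at 0 in both Danfeng-2 stages and 151 at 0 in both Cabernet Sauvignon stages. Such models have no step to measure in 1 species, and 0 of them were called, so the shares are not fully alike. VIT_12s0028g03960 (chromosome 12, from 4845865 to 4847403) had 0, 0.121 and 0 CPM in Danfeng-2 skin at E-L 34, against 0, 0.0504 and 0 CPM at E-L 33. In Cabernet Sauvignon it had 51.1, 52.3 and 23 CPM at E-L 34 and no count at E-L 33. With 3 counts over the group as a floor, E-L 34 was at least 666-fold higher there. Its Danfeng-2 side rests on 1 or 2 counts a stage, and the call of the difference was lost with the 4 groups fitted alone and without Danfeng-2 E-L 33 replicate 2. VIT_18s0041g02070 (chromosome 18, from 27197974 to 27199869, overlapping 1 model on the other strand) rose in Danfeng-2 to 18.9, 20.3 and 19 CPM at E-L 34, against 0.905, 1.11 and 1 CPM at E-L 33. Cabernet Sauvignon had no count of it at E-L 34, at least 31.7-fold lower than the pooled E-L 33 level of 1.43 CPM, whose libraries had 1.57, 1.46 and 1.26 CPM. VIT_04s0023g01290 (chromosome 4, from 17705304 to 17706960) rose in Danfeng-2 to 11.9 ± 1.3 CPM at E-L 34 (SD, n = 3), against 0.724, 0.202 and 0.239 CPM at E-L 33. Cabernet Sauvignon had no count of it at E-L 34, against 7 counts at E-L 33. VIT_09s0002g08510 (chromosome 9, from 9571452 to 9574536) had no count in Danfeng-2 at E-L 34, against 0.0603, 1.87 and 1.39 CPM of E-L 33, whose pooled level of 1.17 CPM is at least 18.6 times the floor of 3 counts over the group. The model had 17.3, 17.4 and 15.6 CPM in Cabernet Sauvignon at E-L 34, against 50.3, 49.6 and 49.2 CPM at E-L 33. Its call was lost with the 4 groups fitted alone and with limma on log2(FPKM + 0.1), and its direction turned, to 0.44, with limma on log2(FPKM + 1).

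In runs of 10 neighbouring tested models, those with the most calls in 1 direction lay in or next to windows already described, apart from 2. Higher in the Danfeng-2 step were 10 of 10 models in each of 2 runs on chromosome 16, and 8 of 10 on chromosome 11 from 18940464 to 19015143. Lower in it were 8 of 10 on chromosome 13 from 3948182 to 4049360, and 7 of 10 on chromosome 4 from 1204223 to 1296897, where 2 were higher and 8 overlap another. The chromosome 4 run, which holds VIT_04s0008g01490, summed to 181.5 ± 8.21 CPM in Danfeng-2 skin at E-L 34, against 274.9 ± 105.0 CPM at E-L 33 (SD, n = 3 each). In Cabernet Sauvignon it summed to 1119.0 ± 381.8 CPM at E-L 34, and 899.0 CPM without replicate 3, against 182.6 ± 5.72 CPM at E-L 33. On chromosome 14, 6 of 10 models from 1813650 to 1924241 were lower (6 lower and 1 higher without the 2 libraries). By single steps 1 of them fell in Danfeng-2 and 1 rose in Cabernet Sauvignon. The run summed to 620.6 CPM in Danfeng-2 skin at E-L 34, against 584.2 CPM at E-L 33. In Cabernet Sauvignon it summed to 538.1 CPM at E-L 34, against 439.3 CPM at E-L 33. Over all tested models 8.39% were higher and 9.15% lower. The runs were picked for their counts, and no test was made of them.

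The difference of the steps is also the change of the species difference across the step. Of the 1541 models higher in the Danfeng-2 step, 409 were not called between the species at E-L 33 and stood higher in Danfeng-2 by E-L 34, while 466 began lower in Danfeng-2, at E-L 33, and were no longer called at E-L 34. A further 167 turned from lower to higher. Of the 1681 lower models, 521 were not called at E-L 33 and stood lower in Danfeng-2 by E-L 34, 408 were higher at E-L 33 and no longer called at E-L 34, and 129 turned from higher to lower. Over all tested models 28.2% were called between the species at E-L 33 (Danfeng-2 higher in 13.5% and lower in 14.6%), and 27.4% at E-L 34 (12.8% and 14.6%).

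The libraries of E-L 35 and E-L 38 took no part in the contrast and show what those models did next. Of the 409 models that had become higher in Danfeng-2, 164 were higher at E-L 35 (40.1%) and 31 lower (7.58%), where 17.7% and 16.7% of all tested models were. Of the 521 that had become lower, 204 were lower at E-L 35 (39.2%) and 58 higher (11.1%). Calls in the direction of E-L 34 thus outnumbered opposite ones in both sets. Of the 466 that had been lower at E-L 33 and not called at E-L 34, 161 were lower again at E-L 35 (34.5%) and 35 higher, and of the 408 that had been higher, 162 were higher again (39.7%) and 25 lower. Without these 2 libraries and Danfeng-2 E-L 35 replicate 1, which also stood apart, the shares in the direction named were 37.8%, 38.8%, 36.3% and 41.0%, of 679, 598, 818 and 517 models, where 36.4% of all tested models were called (18.3% higher and 18.1% lower). At E-L 38, 189 of the 409 were higher (46.2%) and 237 of the 521 were lower (45.5%), where 15.3% and 16.3% of all tested models were. Of the 466, 93 were lower and 77 higher at E-L 38, and of the 408, 79 were higher and 56 lower. In these latter classes, calls in the direction of E-L 33 thus outnumbered opposite ones by less at E-L 38 than at E-L 35. Over all 1541 models higher in the Danfeng-2 step, 372 were higher and 339 lower in Danfeng-2 by E-L 35, and 477 (31.0%) and 272 (17.7%) by E-L 38.

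**Figure D4:**
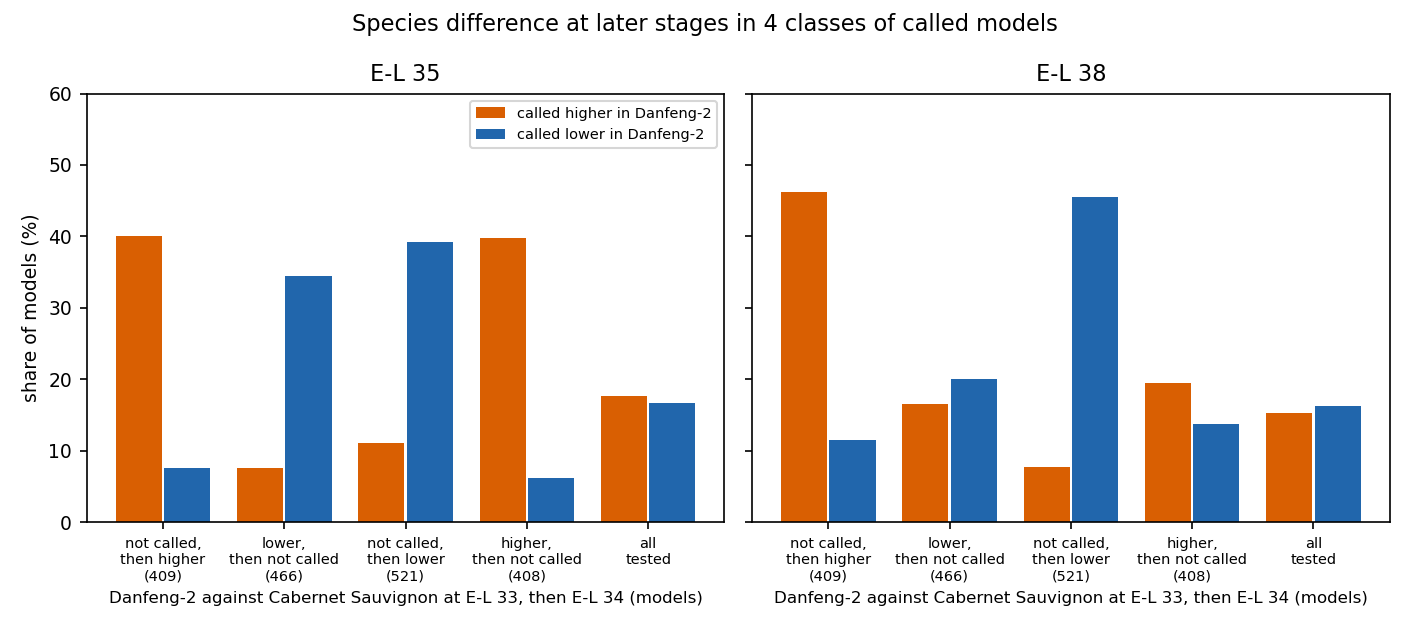
Share (%) of models called higher or lower in Danfeng-2 against Cabernet Sauvignon at E-L 35 and E-L 38, for 4 classes defined by the species difference at E-L 33 and then at E-L 34, and for all tested models. The classes of 409 and 521 models kept their E-L 34 direction in 40.1% and 39.2% at E-L 35 and in 46.2% and 45.5% at E-L 38. In the classes of 466 and 408 models the E-L 33 direction was less frequent at E-L 38 than at E-L 35.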

How the data were processed

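Skin RNA of 8 groups (2 species, 4 stages, 3 libraries each) was sequenced, and 1 table per library was deposited. The submitters' processing notes name TopHat2, without a version; genome build, counting tool and strandedness of counting were not stated in those sources. Per the file headers each table holds a Count, FPKM, Normalized value and Length. The deposited counts are whole numbers per model, not normalized. FPKM, as deposited, served in an alternative. The Normalized values are a signal, not otherwise described per the file headers, and were not used; Length was taken as bp.

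The tests were run with edgeR 4.0.16 under R 4.3.3: filterByExpr, TMM scaling and a quasi-likelihood fit of 8 groups over the 24 libraries together, with a common estimate of spread. Adjusted p-values are Benjamini-Hochberg over all 18375 tested models. CPM are counts scaled by the TMM-adjusted library size (CPM of edgeR). The SE of a log2 difference is its size divided by the square root of the test's F. P-values measure the spread between libraries, which may be technical, and bounds against 0 counts cover counting error only. Counts were simulated for all models from a common mean over the 8 groups, with 200 models changed in Danfeng-2 at E-L 34. These 200 were drawn only from models above a minimum mean count, so recovery at lower counts was not measured. The test gave back 72% of 3-fold and 90% of 4-fold differences, with 6 false calls among 18175 unchanged models. No other stage or species difference and no library standing apart was simulated. In the deposited data 28.2% of tested models were called between the species at E-L 33, and some libraries stood apart. The simulated rates are thus not error rates of the 3222 calls, which were not tested.

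The contrast, the windows and the rule for named models were chosen with earlier results of these data known. Named were models called in the same direction with all libraries and without the 2, with at least 20 CPM in the highest and 1 CPM in each of the 4 groups. They were ranked by the smaller of those 2 absolute log2 differences within classes of the species' own steps (the first 4, 3 or 2), plus the first 2 per direction with a group at 0 counts. Single models of the windows were picked for level or contrast after their values were seen. Lists and tissue markers fixed by product name were not run, since no model is named. As alternatives the filter was dropped or made stricter, RLE factors, a robust fit, the 4 groups by themselves, the replicate number as a block and other fold minimums were tried, libraries were left out, and DESeq2 1.42.0 and, on FPKM with a pseudocount of 1 or 0.1 in log2, limma 3.58.1 were run.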

Additional observations from a re-analysis of the deposited data

Results flagged for a closer look

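The softening step differed between the species by the interaction test in 3222 models, and the named models are among them. Their log2 differences, Danfeng-2 step minus Cabernet Sauvignon step, are gathered here. Where Danfeng-2 rose and Cabernet Sauvignon fell, they were 7.06 for VIT_16s0039g01130, 6.97 for VIT_16s0100g00900, 6.86 for VIT_12s0028g03550 and 6.47 for VIT_16s0100g00810. With the opposite steps they were -9.67 for VIT_11s0016g04080, -9.39 for VIT_04s0008g01490, -9.04 for VIT_13s0019g02850 and -8.82 for VIT_01s0010g02290. Where the Danfeng-2 step alone was called, they were 3.97 for VIT_05s0020g04780, 3.69 for VIT_06s0080g00090 and 3.63 for VIT_08s0007g08840, and -4.29 for VIT_13s0019g00330, -4.11 for VIT_11s0016g03250 and -5.23 for VIT_10s0003g01010.

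Where the Cabernet Sauvignon step alone was called, the differences were -7.41 for VIT_04s0008g01110, -7.06 for VIT_01s0146g00150 and -7.66 for VIT_12s0035g01910, and 5.88 for VIT_17s0000g03390, 5.45 for VIT_06s0004g06830 and 5.25 for VIT_18s0001g01300. With both steps in 1 direction they were -2.94 for VIT_18s0001g08060, -1.73 for VIT_18s0001g09910, 2.65 for VIT_12s0035g01820 and 2.40 for VIT_18s0001g03540. For models with a group at 0 counts the fitted values depend on the prior count: 11.81 for VIT_18s0041g02070, 9.30 for VIT_04s0023g01290, -5.66 for VIT_09s0002g08510 and -11.45 for VIT_12s0028g03960.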

How the results depend on the processing

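Leaving out the 2 libraries raised the models higher in the Danfeng-2 step to 2388 and those with opposite called steps to 465. Leaving out Danfeng-2 E-L 35 replicate 1 as well, a setting added after the data were seen, gave 2610 and 534. Leaving out single libraries gave 2944 to 3829 called models, 1376 to 2015 higher, 1513 to 1877 lower and 254 to 384 with opposite steps. For the steps alone it gave 1506 to 2049 models in Danfeng-2 and 3141 to 4163 in Cabernet Sauvignon, and for the species difference 4955 to 6037 at E-L 33, 4856 to 5415 at E-L 34, 6406 to 6611 at E-L 35 and 5845 to 6009 at E-L 38. More models were higher than lower also with limma (1582 and 1168 on log2(FPKM + 1), 1915 and 1522 on log2(FPKM + 0.1)), without Danfeng-2 E-L 33 replicate 1 alone (1952 and 1877) and without Cabernet Sauvignon E-L 34 replicate 3 alone (2015 and 1802).

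Without a fold minimum 6348 models were called, 2783 higher and 3565 lower, and 921 had opposite steps; the steps had 3824 models in Danfeng-2 and 8642 in Cabernet Sauvignon, and the species difference 10527, 9691, 11314 and 10864 by stage. With a 4-fold minimum the numbers were 1471, 711, 760 and 101, then 962 and 1426, and 2550, 2818, 3408 and 2982. The Danfeng-2 step had 1120 models with limma on log2(FPKM + 1). Across alternatives with a 2-fold minimum, 25 to 27 models of the chromosome 16 window, 4 of that on chromosome 10 and 7 to 10 of that on chromosome 11 were higher, and 9 to 12 of that on chromosome 13 were lower. Of 644 values of the 28 named models, 637 kept their call, 6 lost it and 1 turned. The naming rule required the call without the 2 libraries and favoured large differences or high levels. Kept calls were thus partly fixed in advance and say little of other models. The value that turned was 0.44, for VIT_09s0002g08510 with limma on log2(FPKM + 1), and the cause was not tested.

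With the replicate number as a block, 3174 models were called, 1560 higher and 1614 lower. Whether the numbers pair the libraries cannot be told from these values. Deviations from group means of same-numbered libraries correlated at -0.237 to 0.252, over 0.1 in 2 of 18 pairs, and 7 of 12 libraries correlated best with their own number. The extremes, 0.252, -0.237 and 0.249, were between Danfeng-2 E-L 33 and Cabernet Sauvignon E-L 34, the groups with a library standing apart. Models at or near 0 in Danfeng-2, as on chromosomes 2, 5 and 6, allow no firm statement on the step at this depth.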

Other observations

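Models called for a difference between the steps differed in length by direction: the median was 1960 bp in the 1541 higher models and 1329 bp in the 1681 lower ones, beside 1710 bp over all tested models. Without the 2 libraries the medians were 1936 and 1264 bp. The part of length or level in the calls was not tested. The median CPM of the highest group was 28.8 in the higher and 18 in the lower models, beside 22.4 over all. Newly predicted models made up 3.31% of the higher and 3.15% of the lower models, and 3.01% of those tested.

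Chromosome 16 had the highest share of higher models among the 19 chromosomes, 11.9% of 683 tested, but 27 of its 81 higher models lie in the window described above, and outside it the share was 8.29% of 651, beside 8.39% of all tested models. The share was lowest on chromosome 14, 5.75% of 1165. The share of lower models ran from 6.74% on chromosome 15 to 11.6% on chromosome 3.

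Among the 1681 lower models, 97 (5.77%) had their highest mean of the 4 stages at E-L 34 in Danfeng-2 and 923 (54.9%) in Cabernet Sauvignon, where 16.9% and 23.6% of all tested models did. Among the 1541 higher models, 584 (37.9%) had it at E-L 34 in Danfeng-2 and 18 (1.17%) in Cabernet Sauvignon. At E-L 33 in Cabernet Sauvignon 997 (64.7%) had it, where 28.7% of all tested models did. E-L 33 and E-L 34 are parts of the contrast, so these shares are a description.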
